A study of Mus musculus with 6 samples.

Results

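The 34 genes described here encode proteins of tight junctions and of the apical polarity machinery that acts beside them. They were chosen by name, with earlier results of these data known, and claudins were left out. All 34 were found among the 51826 Ensembl genes of the deposited count table. The samples are EpiLC, epiblast-like cells at day 3 without LIF and without 2i, and ESC, embryonic stem cells kept in LIF plus 2i (inhibitors of GSK and of MEK), with 3 RNA-seq libraries per state. All were wildtype, came from V6.5, a single mouse embryonic stem cell line, and grew in Knockout DMEM with 15% fetal bovine serum. No label says that replicates came from separate cultures, so p-values measure the spread between these libraries, which may be technical.

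Tight junctions seal the space between neighbouring epithelial cells at the border of the apical and lateral membranes. Transmembrane proteins bridge the gap, and plaque proteins such as ZO-1 tie them to actin. The Crumbs and PAR complexes mark the apical side of the cell and the Scribble module the basolateral side, each keeping the other out. In the mouse embryo the epiblast turns into a polarised epithelium around a lumen at implantation, and embryonic stem cells model the stage before it.

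Library totals ran from 9710410 to 22879812 counts. Levels are CPM, counts scaled to a common library size by the TMM method, with mean ± SD over n = 3 libraries. A count of 3 corresponded to 0.135 to 0.301 CPM, for counting error only. ESC replicate 3 stood apart, since its counts differed from those of ESC replicates 1 and 2 by 25.7 and 26.1 times the sampling variance (chi-square over degrees of freedom), where the other pairs within a state gave 2.17 to 4.11. The libraries fitted their labels, since all 8 listed naive pluripotency genes fell and all 6 listed post-implantation epiblast genes rose in EpiLC.

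Most of the members rose in EpiLC, and the few large falls were in transmembrane proteins. Of the 34 members, all of which passed the filter on low counts, 22 rose, 8 fell and 4 were not called by edgeR's quasi-likelihood test at an adjusted p under 0.05. Of all 14996 genes tested, 64.6% were called, 32% higher and 32.6% lower. The share of members that rose was above that background and the share that fell below it. Members were chosen with earlier results of these data known, so the comparison describes the list and is not a test. With at least a 2-fold difference, 13 members rose and 3 fell, where 17% of all genes rose and 12.4% fell by that much, 29.4% together. The median log2 fold change of the members, EpiLC over ESC, was 0.69, and that of all genes tested was 0.01. The 3 EpiLC libraries lay above the 3 ESC libraries in 21 members (34.9% of all genes), below them in 8 (35.3%), and overlapped them in 5, while 70.2% of all genes did not overlap. Without ESC replicate 3 the member counts were again 22 higher and 8 lower, with 13 and 3 at 2-fold. More of all genes were called in that fit, 5815 higher and 5916 lower of 15296. With every library the counts over all genes were 4794 and 4891 of 14996. The RNA came from whole cultures, so more cells that express a gene and more RNA per cell cannot be told apart.

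**Figure D1:**
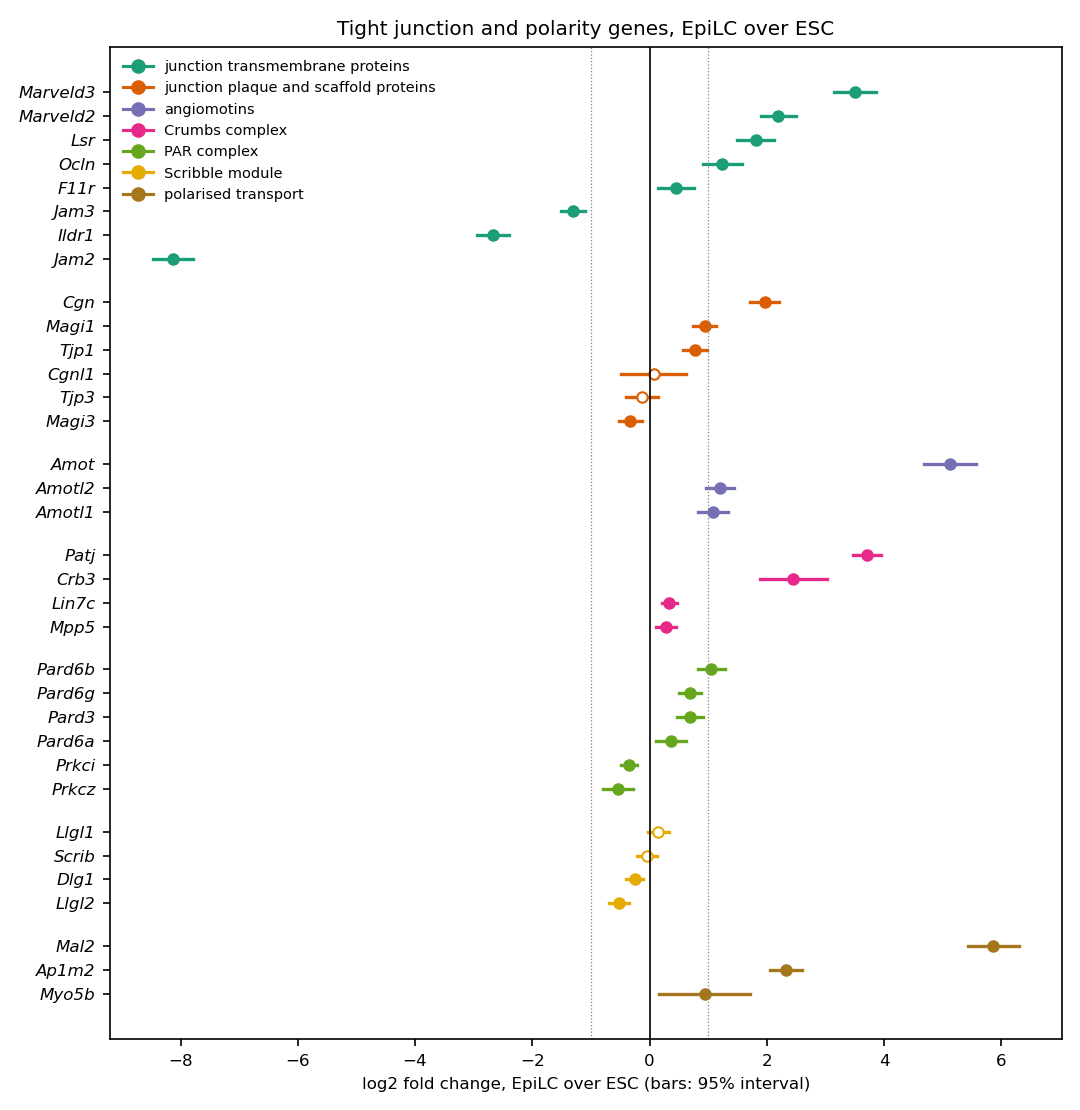
Log2 fold change, EpiLC over ESC, of the 34 members by role; points are edgeR estimates, bars their 95% intervals, open points members that were not called, and dotted lines a 2-fold difference. All members of the angiomotin, Crumbs and transport groups lie to the right of 0, and Jam2 lies farthest to the left at -8.12.

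Markers of other cell types also differed between the states. The summed level of 9 fibroblast markers was 271 to 318 CPM in EpiLC and 6.33 to 7.30 CPM in ESC, and 5 of the 6 tested rose and none fell. Tagln, at a mean of 275 CPM in EpiLC and 2.95 CPM in ESC, made up most of the sum. Dcn had 4.33 ± 0.405 CPM in EpiLC and was at 0 in each ESC library, Acta2 averaged 6.05 CPM in EpiLC and 0.0346 CPM in ESC, and Col1a2 averaged 3.83 CPM in EpiLC and 0.140 CPM in ESC. Lum was at 0 in each EpiLC library and held 1 count in ESC. The 8 primitive endoderm markers summed to 16.7 to 19.2 CPM in EpiLC and to 8.61 to 13.1 CPM in ESC, and of the 5 tested 2 rose and 2 fell. Dab2 rose to 9.996 ± 0.947 CPM in EpiLC, against 0.575 ± 0.642 CPM in ESC, and Gata4 rose 2.12-fold. Hnf4a fell to 0 in each EpiLC library, against 3.47 ± 0.894 CPM in ESC, and Sox17 fell to 0.0595 CPM in EpiLC, against 1.46 CPM in ESC. The 8 trophectoderm markers summed to 13.5 to 14.7 CPM in EpiLC and to 53.5 to 60.1 CPM in ESC. Tfap2c, at a mean of 35.8 CPM in ESC, made up most of the sum there. Plet1 averaged 11.9 CPM in ESC, Gata3 1.14 CPM, Cdx2 0.396 CPM and Hand1 0.0731 CPM. Of the 5 tested trophectoderm markers 1 (Krt7) rose and 3 fell, while Elf5 was at 0 in EpiLC and held 3 counts in ESC. The 5 surface ectoderm markers summed to 0.803 to 0.855 CPM in EpiLC and 1.67 to 3.14 CPM in ESC. The part of such cells in the results was not tested.

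Because several of the members that rose encode proteins of the same complexes, the letters of their promoters were read. RefSeq windows on GRCm38.p6, from 250 bases before to 50 after a transcript start, were at hand for 25 members in 39 windows. No window was at hand for Jam2, Jam3, Mal2, Marveld3, Mpp5, Pard6g, Scrib, Llgl2 and Myo5b. Of the members that fell by at least 2-fold, only Ildr1 could thus be read. The E-box CAGGTG, the letters that ZEB and SNAI repressors of epithelial genes are known to bind, was searched on both strands. It was in 20 of the 39 windows (51.3%), which belong to 15 members, against 20.2% of all 32851 windows. Of the 22 member windows with over 60% G and C, 11 held it, against 20.4% of the 9410 such windows in all. Members and motif were chosen with earlier results of these data known, so these shares describe the list and are not a test. At least 3 matches stood in 6 of the 39 windows, where 0.365% of all windows held as many. These belong to 5 members, Crb3, Patj, Ap1m2, Lsr and Pard3. In Pard3 they lie in window 2, at a start far inside the gene, and window 1 held none. At least 1 match was in a window of 11 of the 17 members with a window that rose, 3 of the 5 that fell and 1 of the 3 that were not called. The 5 members with 3 or more were all among those that rose, and the other sets are too small to compare with them. Overlapping windows of a gene share matches, and a match is a run of letters, not a bound site.

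The repeated matches are shown for Ap1m2 and Lsr as runs that end just before the transcript start, and for Crb3 as 30 bases around each match, all 5′ to 3′ on the strand of the gene with CAGGTG or its reverse complement in capitals. The first 3 matches of Ap1m2 (chr9:21312334-21312463, minus strand) began 30 bases apart, within a repeat of nearly the same letters. Those of Crb3 (chr17:57062071-57062243, plus strand) began 55, 56 and 32 bases apart. The Lsr run is chr7:30973470-30973719, minus strand.
Ap1m2: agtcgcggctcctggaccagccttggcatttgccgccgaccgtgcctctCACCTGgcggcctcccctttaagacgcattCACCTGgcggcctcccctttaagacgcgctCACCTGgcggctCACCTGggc
Lsr: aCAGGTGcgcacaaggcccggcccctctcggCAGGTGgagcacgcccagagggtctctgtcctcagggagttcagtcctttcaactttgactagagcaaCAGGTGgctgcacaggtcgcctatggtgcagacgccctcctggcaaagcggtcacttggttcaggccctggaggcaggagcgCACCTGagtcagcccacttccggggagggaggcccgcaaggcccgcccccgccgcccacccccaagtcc
Crb3 match 1: cccctgtgcttaCACCTGctcatttccgcc
Crb3 match 2: gggttcccgttaCAGGTGctctggcggcgc
Crb3 match 3: ctcagccaggctCAGGTGcacaagccggaa
Crb3 match 4: gcgctctttgccCAGGTGggtgactaaact

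A grainyhead motif, AACCNGTT on either strand, was in 1 of the 39 windows, that of Cgn, and in 2.09% of all windows. The match holds CAGGT but no CAGGTG. The run before the Cgn start (chr3:94786483-94786612, minus strand) is shown with the match in capitals.
Cgn: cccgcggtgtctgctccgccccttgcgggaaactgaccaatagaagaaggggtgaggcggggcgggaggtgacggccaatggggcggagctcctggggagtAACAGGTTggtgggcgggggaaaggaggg

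**Figure D2:**
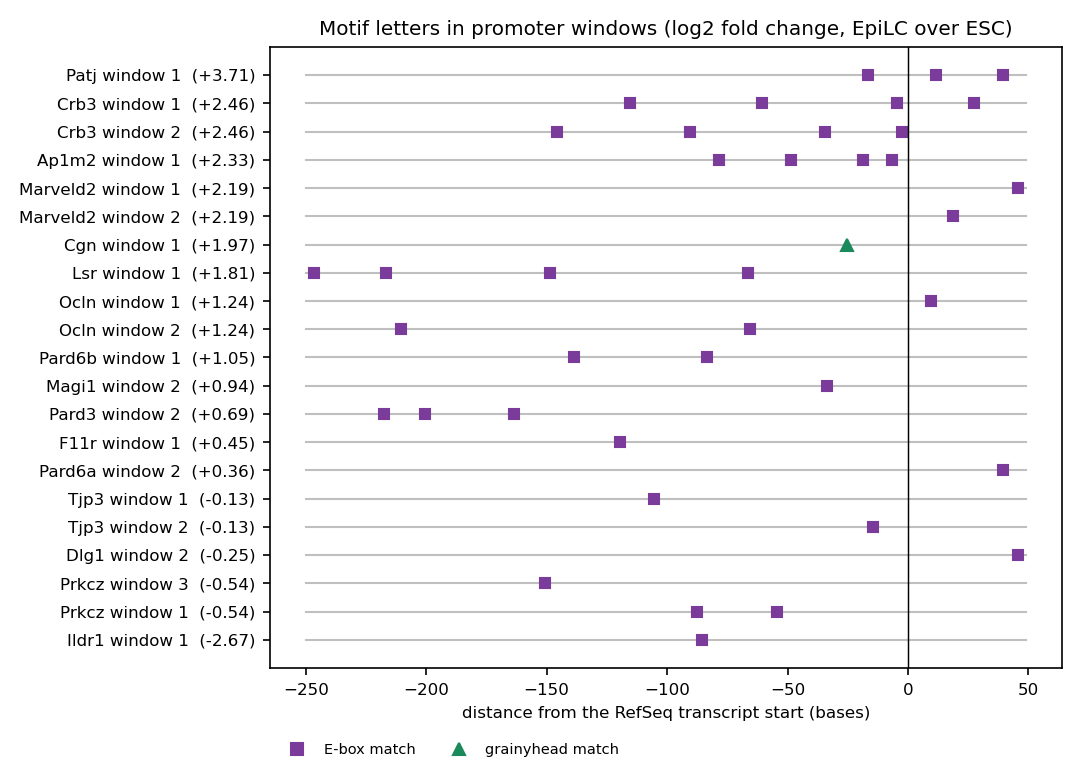
Positions of E-box matches (squares) and of the grainyhead match (triangle) in promoter windows of the members that hold any, as distance in bases from the RefSeq transcript start; windows are ordered by log2 fold change, EpiLC over ESC, given in parentheses. Windows of Patj, Crb3, Ap1m2, Lsr and Pard3 hold 3 or more E-box matches.

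The transmembrane proteins of the junction diverged most. Of 8 members, 5 rose and 3 fell, 4 and 3 of them by at least 2-fold. Jam2, an immunoglobulin-type junctional adhesion molecule (ENSMUSG00000053062, chromosome 16, 84774123 to 84825928 on GRCm38), stood at 1.004, 1.11 and 0.536 CPM in EpiLC replicates 1 to 3, against 241, 249 and 256 CPM in ESC replicates 1 to 3. Every EpiLC library lay far below every ESC library. The fall was 279-fold (log2 fold change -8.12 ± 0.15 SE, with an edgeR adjusted p = 2.23e-08). Its paralog Jam3 (chromosome 9, 27097384 to 27155421) had 24.5, 25.1 and 25.8 CPM in EpiLC, against 63.0, 67.7 and 55.6 CPM in ESC. It fell 2.47-fold, and an antisense gene of 76 counts in all overlaps its exons. F11r, which encodes JAM-A, the form typical of epithelial tight junctions, had 74.3, 69.3 and 68.4 CPM in EpiLC, against 45.7, 46.0 and 64.2 CPM in ESC. F11r rose by a log2 fold change of 0.45 (SE 0.13, adjusted p = 0.0172 by edgeR). That call was lost without EpiLC replicate 1 (adjusted p = 0.0636 by edgeR), EpiLC replicate 2 (0.0530), ESC replicate 1 (0.0650) or ESC replicate 2 (0.0679).

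The JAM transcripts differed in make-up as well as in total. Per kb of exon, Jam2 made up 0.422% ± 0.144 of the 3 JAM genes in EpiLC and 51.4% ± 0.754 in ESC. F11r made up 76.8% ± 1.16 in EpiLC and 24.3% ± 3.89 in ESC, while the share of Jam3 overlapped between the states, with 22.8% ± 1.23 in EpiLC and 24.3% ± 3.15 in ESC. The 3 together came to 34.5 ± 1.03 CPM per kb in EpiLC and 80.1 ± 3.64 CPM per kb in ESC. Among the 34 members Jam2 ranked 34 by CPM per kb in EpiLC and 2 in ESC.

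The MARVEL-domain proteins of the junction, Ocln, Marveld2 and Marveld3, all rose. Ocln encodes occludin, and its 77.7, 69.3 and 70.8 CPM in EpiLC stood against 25.6, 28.4 and 38.7 CPM in ESC, 2.37-fold higher. Marveld2 encodes tricellulin, which sits where 3 cells meet. It had 27.4, 24.2 and 22.86 CPM in EpiLC, against 5.92, 4.82 and 5.57 CPM in ESC, 4.58-fold higher (adjusted p = 3.11e-06 by edgeR). Marveld3 (ENSMUSG00000001672, chromosome 8, 109947914 to 109962203) had 19.1, 18.0 and 17.6 CPM in EpiLC, against 1.82, 1.31 and 1.74 CPM in ESC. It rose 11.4-fold (log2 fold change 3.51 ± 0.16 SE, with an edgeR adjusted p = 7.54e-07). The groups did not overlap in any of the 3, as in 70.2% of all genes tested. Occludin remained the most abundant of the 3 per kb, at 57.2% ± 0.796 in EpiLC and 77.3% ± 4.30 in ESC.

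Angulins are the proteins that bring tricellulin to tricellular contacts, and the angulin genes among the members, Lsr and Ildr1, moved in opposite directions. The angulin gene Ildr2, which is not a member, rose 20.3-fold. Lsr (ENSMUSG00000001247, chromosome 7, 30957770 to 30973464) had 83.9, 84.0 and 89.6 CPM in EpiLC, against 26.1, 28.1 and 18.6 CPM in ESC. It rose 3.502-fold (log2 fold change 1.81 ± 0.14 SE, with an edgeR adjusted p = 1.19e-05). Ildr1 (ENSMUSG00000022900, chromosome 16, 36693978 to 36726804) had 7.93, 7.70 and 7.86 CPM in EpiLC, against 47.9, 44.9 and 56.8 CPM in ESC. It fell 6.35-fold (log2 fold change -2.67 ± 0.12 SE, with an edgeR adjusted p = 7.31e-07). Per kb, the ratio of Ildr1 to Lsr was 0.0464 in EpiLC and 1.05 in ESC. Antisense genes of 213 and 16 counts in all overlap exons of Lsr, which held 4163 counts, and the strand setting of the counting is not given in the sources used here.

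**Figure D3:**
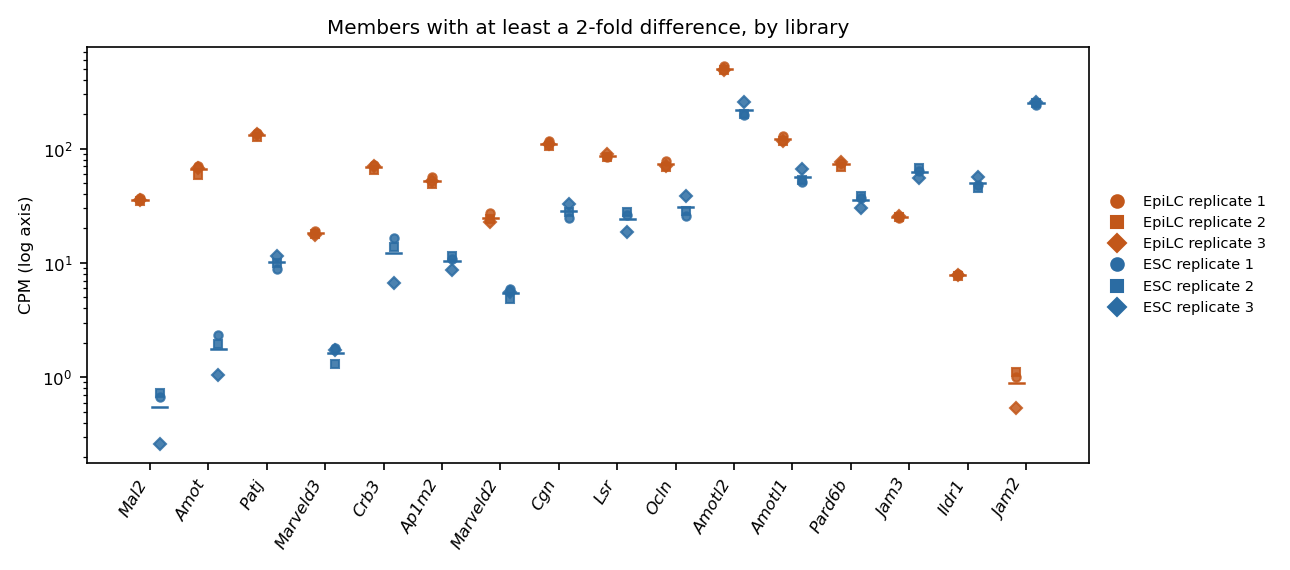
CPM in each library, on a log axis, for the 16 members called with at least a 2-fold difference, ordered by fold change; symbols mark replicates, short lines the mean of 3 libraries. EpiLC points lie above ESC points in the first 13 genes and below them in Jam3, Ildr1 and Jam2.

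Among plaque and scaffold proteins 3 of 6 rose, 1 fell and 2 were not called. Cgn, which encodes cingulin, a link between the junction and the actomyosin cortex, had 117, 106 and 109 CPM in EpiLC, against 24.5, 27.9 and 32.8 CPM in ESC, 3.91-fold higher (adjusted p = 2.20e-06 by edgeR). The related Cgnl1, or paracingulin, had 12.4, 16.7 and 13.4 CPM in EpiLC, against 16.7, 14.8 and 8.28 CPM in ESC, with overlapping groups and a 95% interval of the log2 fold change from -0.49 to 0.63. Cgnl1's estimate of 0.07 turned to -0.07 without EpiLC replicate 2 and to -0.15 without ESC replicate 3. Cgn made up 91.0% ± 1.64 of the pair per kb in EpiLC and 73.5% ± 9.30 in ESC.

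Tjp1, which encodes the scaffold ZO-1, was abundant in each state, at 371, 336 and 339 CPM in EpiLC, against 191, 189 and 229 CPM in ESC (ENSMUSG00000030516, chromosome 7, 65296165 to 65527781). The groups did not overlap, as in 70.2% of all genes tested, and Tjp1 rose 1.72-fold. Tjp3, encoding ZO-3, had 36.5, 29.6 and 27.6 CPM in EpiLC, against 37.0, 33.3 and 32.1 CPM in ESC, and its interval of -0.41 to 0.14 lay within 2-fold. The scaffold genes Magi1 and Magi3 went apart. Magi1 rose 1.92-fold, with 98.97, 103 and 109 CPM in EpiLC, against 57.7, 55.8 and 47.8 CPM in ESC. Magi3 fell 1.25-fold, with 41.1, 44.99 and 45.3 CPM in EpiLC, against 54.1, 51.5 and 59.4 CPM in ESC. Per kb, Magi1 made up 65.6% ± 0.679 of the pair in EpiLC and 44.0% ± 4.08 in ESC, so which of them was the more abundant differed between the states.

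The angiomotins, junction-associated scaffolds that bind the Hippo pathway effector YAP, all rose by at least 2-fold. Amot (ENSMUSG00000041688, chromosome X, 145446425 to 145505181) had 70.5, 58.2 and 68.2 CPM in EpiLC, against 2.33, 1.94 and 1.05 CPM in ESC. It rose 35.0-fold (log2 fold change 5.13 ± 0.19 SE, with an edgeR adjusted p = 3.44e-07). Amotl1 had 129, 115 and 117 CPM in EpiLC, against 51.0, 52.8 and 66.6 CPM in ESC, 2.13-fold higher. Amotl2 had 528, 486 and 486 CPM in EpiLC, against 197, 202 and 254 CPM in ESC, 2.30-fold higher. At 79.5 ± 3.92 CPM per kb in EpiLC, Amotl2 ranked 1 of the 34 members, and it ranked 5 in ESC with 34.6 ± 5.03 CPM per kb. Amot, whose relative change was the largest, made up 7.86% ± 0.573 of the family per kb in EpiLC and 0.545% ± 0.254 in ESC.

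**Figure D4:**
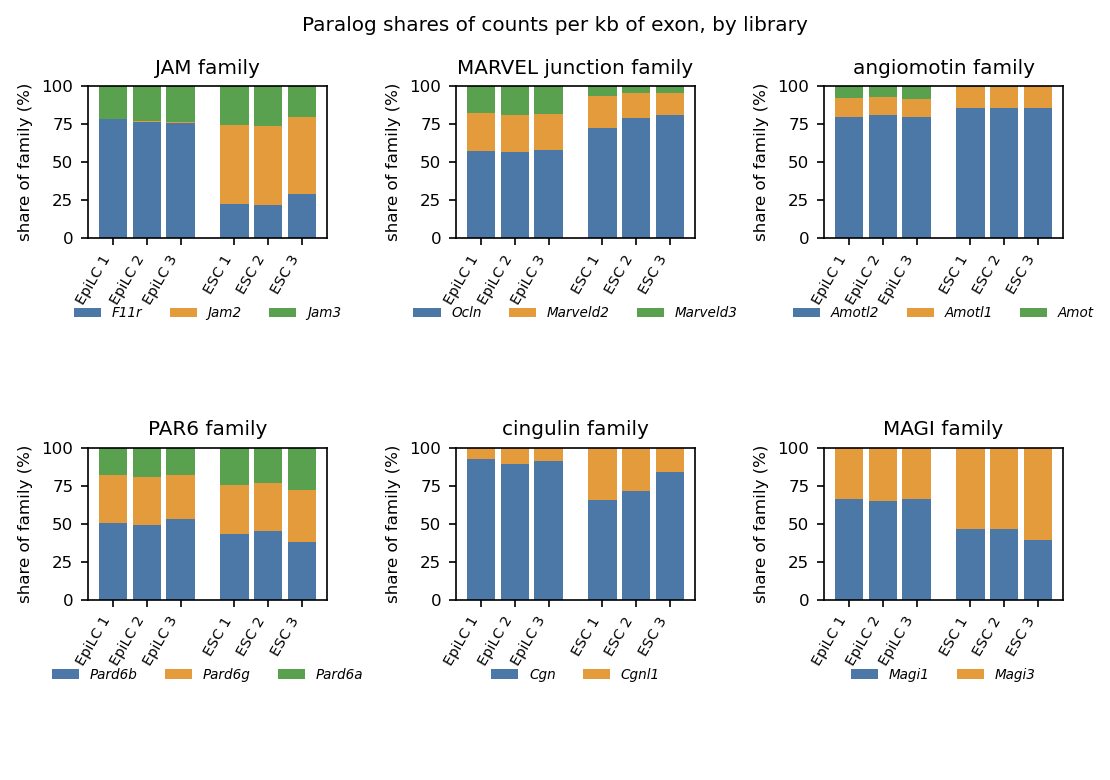
Share of each paralog in the counts per kb of exon of the listed members of its family, in percent, in every library. EpiLC libraries are on the left and ESC libraries on the right of each panel. Magi2, which is not a member, is left out of the MAGI panel. Jam2 makes up 50.6 to 51.9% of the JAM counts in ESC libraries and 0.262 to 0.540% in EpiLC libraries.

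The Crumbs complex, which sets the apical membrane, rose in all 4 members, but by unequal amounts. Patj (ENSMUSG00000061859, chromosome 4, 98395785 to 98719603), a scaffold of many PDZ domains, had 137, 126 and 133 CPM in EpiLC, against 8.92, 10.003 and 11.6 CPM in ESC. It rose 13.1-fold (log2 fold change 3.71 ± 0.10 SE, with an edgeR adjusted p = 9.01e-08). Crb3 (ENSMUSG00000044279, chromosome 17, 57059105 to 57065918), the Crumbs protein of most epithelia, had 72.0, 64.8 and 69.8 CPM in EpiLC, against 16.3, 13.7 and 6.62 CPM in ESC. It rose 5.48-fold (log2 fold change 2.46 ± 0.25 SE, with an edgeR adjusted p = 5.88e-05), and ESC replicate 3 was the lowest library. The linkers of the complex differed by much less. Mpp5, which encodes PALS1, had 109, 94.8 and 102 CPM in EpiLC, against 81.4, 88.3 and 83.0 CPM in ESC, 1.21-fold higher, and was not called without ESC replicate 1 (adjusted p = 0.0582 by edgeR). Lin7c had 237, 235 and 236 CPM in EpiLC, against 185, 183 and 192 CPM in ESC, 1.27-fold higher. Per kb Crb3 ranked 4 among the members in EpiLC and 18 in ESC, while Lin7c ranked 2 in EpiLC and 1 in ESC.

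The PAR complex, an adaptor and scaffold set around atypical protein kinase C, split between its scaffolds and its kinases. Pard3, encoding the scaffold PAR-3, and all 3 PAR6 genes rose, and the kinase genes Prkci and Prkcz fell. Pard6b (chromosome 2, 168081004 to 168101203) had 75.0, 69.1 and 75.5 CPM in EpiLC, against 37.0, 38.3 and 30.2 CPM in ESC, 2.07-fold higher. Pard6g had 43.0, 41.9 and 38.1 CPM in EpiLC, against 25.4, 25.4 and 25.1 CPM in ESC, 1.62-fold higher. Pard3 had 148, 154 and 160.4 CPM in EpiLC, against 88.2, 88.3 and 110.02 CPM in ESC, 1.61-fold higher. The states did not overlap in any of these genes, as in 70.2% of all genes tested. Pard6a had 12.6, 12.8 and 12.1 CPM in EpiLC, against 9.81, 9.19 and 10.4 CPM in ESC (log2 fold change 0.36, adjusted p = 0.0194 by edgeR). The Pard6a call was lost without any single library other than ESC replicate 3, with adjusted p = 0.0503 by edgeR without EpiLC replicate 3, 0.0550 without EpiLC replicate 1, 0.0580 without ESC replicate 1, 0.0750 without EpiLC replicate 2 and 0.0882 without ESC replicate 2. Prkci, for the iota kinase, had 177, 171 and 168 CPM in EpiLC, against 219, 213 and 225 CPM in ESC, 1.27-fold lower. Prkcz, for the zeta kinase, had 18.6, 15.9 and 15.5 CPM in EpiLC, against 24.5, 25.6 and 22.0 CPM in ESC, 1.45-fold lower. The iota form made up 92.2% ± 0.520 of the pair per kb in EpiLC and 91.2% ± 0.830 in ESC.

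None of the 4 members of the basolateral Scribble module rose. Related polarity genes that are not members did rise, namely Dlg3 (log2 fold change 0.48), Dlg4 (1.67), Erbin (0.44) and Lrrc1 (0.81). Dlg5 (0.07) was not called and Dlg2 was not tested. Llgl2 fell 1.43-fold, to 129, 117 and 127 CPM in EpiLC, against 182, 163 and 187 CPM in ESC. Dlg1 fell 1.19-fold, to 175, 166 and 159 CPM in EpiLC, against 205, 200.3 and 190.2 CPM in ESC. Scrib, with 142 ± 4.19 CPM in EpiLC and 146 ± 11.6 CPM in ESC, and Llgl1, with 78.9 ± 3.70 CPM in EpiLC and 71.2 ± 5.34 CPM in ESC, were not called, and their 95% intervals lay between -0.21 and 0.33 on the log2 scale. Llgl1 passed the threshold with upper quartile scaling (adjusted p = 0.0488 by edgeR) and with library totals (0.0255). The log2 fold change of Scrib, -0.05, was 0.02 with library totals and 0.01 without ESC replicate 3. All 4 intervals of the module lay within 2-fold, as they did for 54.5% of all genes tested and for 16 of the 34 members.

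Genes of polarised transport rose in all 3 cases, and 2 of them by at least 2-fold. Mal2 (ENSMUSG00000024479, chromosome 15, 54571192 to 54602847), known for transcytosis to the apical surface in human liver cells, had 36.7, 34.5 and 35.2 CPM in EpiLC, against 0.675, 0.721 and 0.261 CPM in ESC. It rose 58.2-fold (log2 fold change 5.86 ± 0.19 SE, with an edgeR adjusted p = 1.67e-07), and its ESC values rest on 13, 16 and 3 counts. Ap1m2 (ENSMUSG00000003309, chromosome 9, 21294275 to 21312337), the epithelial mu subunit of the clathrin adaptor AP-1 that sorts cargo to the basolateral side, had 56.1, 48.8 and 52.3 CPM in EpiLC, against 10.8, 11.5 and 8.62 CPM in ESC. It rose 5.01-fold (log2 fold change 2.33 ± 0.12 SE, with an edgeR adjusted p = 1.46e-06). The widely expressed mu subunit gene Ap1m1, which is not a member, fell 2.91-fold, with 14.4, 17.9 and 19.6 CPM in EpiLC, against 48.2, 51.3 and 52.1 CPM in ESC. Per kb, Ap1m2 stood at 16.7 and Ap1m1 at 5.43 CPM in EpiLC, against 3.29 and 15.9 CPM in ESC, so their order was reversed between the states.

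Myo5b, a motor that carries apical recycling endosomes, had 12.5, 8.55 and 10.4 CPM in EpiLC, against 3.74, 4.24 and 9.41 CPM in ESC. ESC replicate 3 lay within the EpiLC range. Its log2 fold change of 0.94 (SE 0.33) had an adjusted p = 0.0366 by edgeR. The call was lost without EpiLC replicate 1 (adjusted p = 0.128 by edgeR), 2 (0.0550) or 3 (0.0902) and without ESC replicate 1 (0.112) or 2 (0.123), and without ESC replicate 3 the log2 fold change was 1.37.

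ESC replicate 3 differed from the other ESC libraries in both directions within the members. On the log2(CPM + 0.5) scale it lay below the mean of ESC replicates 1 and 2 in Crb3 (-1.12), Cgnl1 (-0.89), Amot (-0.77), Mal2 (-0.65) and Lsr (-0.53). It lay above them in Myo5b (1.15), Ocln (0.51) and F11r (0.48). The median difference over members was 0.06, against -0.02 over all genes tested. ESC replicate 3 was the lowest ESC library in 14 members (45.4% of all genes tested) and the highest in 17 (41.9%).

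**Figure D5:**
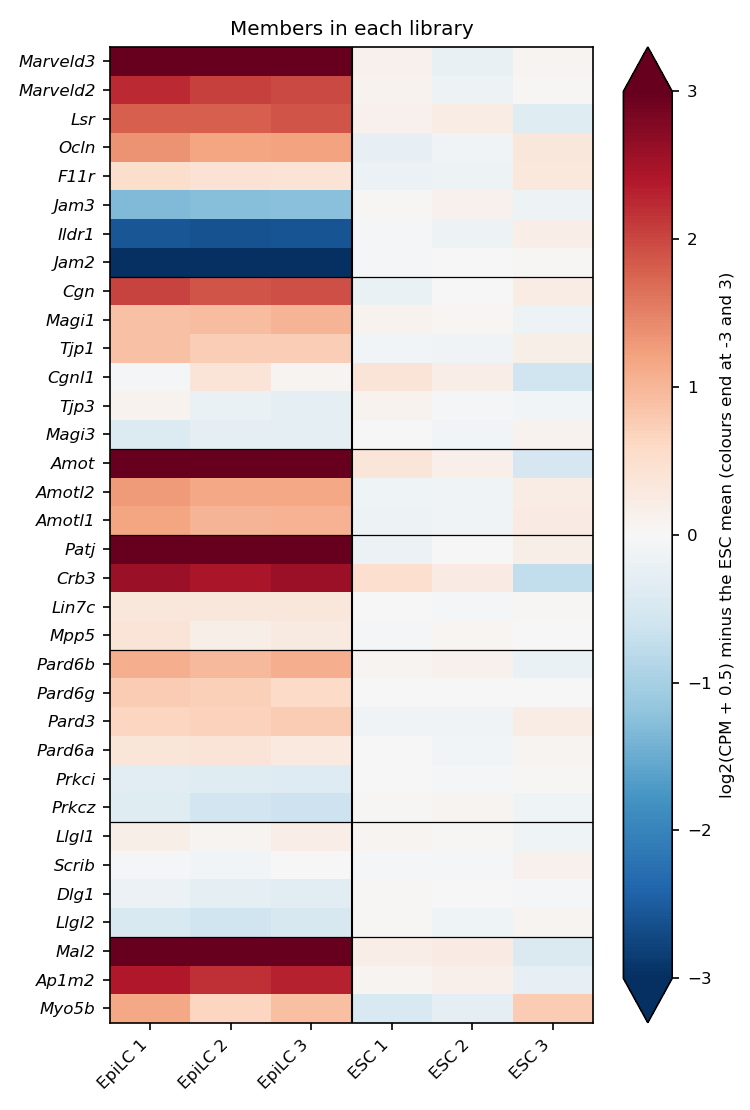
Log2(CPM + 0.5) of each member in each library minus the mean of the 3 ESC libraries, with EpiLC on the left and ESC on the right and lines between roles; colours end at -3 and 3. The EpiLC columns resemble each other, and ESC replicate 3 is paler or darker than its group in Crb3, Myo5b and Cgnl1.

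Whether paralogs differed in their change was tested for 14 pairs by an exact two-sided permutation test on the log2 ratio of the pair in each library. With 3 libraries against 3 the smallest p this test can give is 0.1, so no pair could pass 0.05. For 13 pairs the libraries of the states did not overlap, with an exact permutation p = 0.1 (0.108 adjusted over the pairs). Among single genes 70.2% of all tested did not overlap, and the share for other pairs of genes was not computed. The mean log2 ratio differed by -8.59 for Jam2 to F11r, -4.50 for Ildr1 to Lsr, -4.05 for Amotl2 to Amot, 1.82 for Cgn to Cgnl1, 1.29 for Marveld3 to Marveld2 and -1.28 for Magi3 to Magi1. For Llgl2 to Llgl1 it differed by -0.66. Prkcz to Prkci differed by -0.18 (exact permutation p = 0.2, 0.2 adjusted), within the overlap of the libraries.

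Other genes of the same machinery were listed by role, with earlier results of these data known. Of 42 such genes 36 had enough counts to be tested, and 20 (55.6%) rose, 6 (16.7%) fell and 10 were not called. Of all genes tested 32% rose and 32.6% fell. The median log2 fold change of the related genes was 0.42, EpiLC over ESC, against 0.01 over all genes. Of 9 tested junction genes 6 rose and 1, Sympk, fell (log2 fold change -0.20). Sympk encodes an mRNA processing factor also found at junctions. The angulin gene Ildr2 rose 20.3-fold, with 9.41 ± 1.14 CPM in EpiLC and 0.507 ± 0.259 CPM in ESC, and the scaffold gene Magi2 rose 10.2-fold, with 17.9 ± 0.478 CPM in EpiLC and 1.72 ± 0.449 CPM in ESC. Mpdz, a PDZ scaffold gene related to Patj and named after its values were seen, rose 9.12-fold, with 115, 109 and 109 CPM in EpiLC, against 13.8, 13.97 and 7.93 CPM in ESC.

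Of 13 tested polarity genes 9 (69.2%) rose and none fell, where 32% of all genes rose and 32.6% fell. Crb2, the Crumbs paralog that the mouse embryo needs at gastrulation, had 9.13, 8.38 and 6.52 CPM in EpiLC, against 1.40, 0.766 and 0.784 CPM in ESC, 7.93-fold higher. Crb1 held 14, 20 and 11 counts in EpiLC, against 0, 1 and 0 counts in ESC, and was called higher by edgeR (adjusted p = 3.91e-05). Its ratio of scaled counts was 72.5, with an exact 95% interval of 12.4 to 2927 that covers counting error only and not the spread between libraries. Cdc42, the GTPase that activates PAR6, was at 382 CPM in EpiLC and 383 CPM in ESC and was not called. Of 14 tested genes of the apical membrane and its transport, 5 rose and 5 fell. At 35.7% each, these shares were near those of all genes. Podxl, which encodes the lumen sialomucin podocalyxin, rose 8.19-fold, with 170, 145 and 153 CPM in EpiLC, against 13.9, 14.6 and 29.97 CPM in ESC. Prom1, encoding prominin-1 of membrane protrusions, rose 6.65-fold, with 142 ± 5.45 CPM in EpiLC and 21.2 ± 2.16 CPM in ESC. The PDZ adaptor gene Slc9a3r2 fell 2.78-fold, with 11.3 ± 1.63 CPM in EpiLC and 31.3 ± 2.57 CPM in ESC.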

How the data were processed

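Libraries were made with a stranded Kapa kit from Trizol RNA after Ribo-Zero Gold removed ribosomal RNA, per the labels' protocols. Raw read counts per gene in 6 libraries were deposited by the authors. Tools named in the submitters' processing notes are cutadapt, STAR, featureCounts, DESeq2 and, as the build, mm10, without versions. Strand setting, annotation and multi-mapping reads: not given in the sources used here. The table's 92 spike-in rows held 0 counts and were left out. Symbols, positions and exonic lengths (the union of annotated exons, so per-kb levels depend on the annotation) came from GENCODE M21 on GRCm38, which matched 51633 of 51826 identifiers. Promoter windows came from RefSeq on GRCm38.p6.

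Counts were tested with edgeR 4.0.16 in R 4.3.3 (quasi-likelihood fit, TMM, filterByExpr with at least 10 counts, group as the single term), with Benjamini-Hochberg adjustment over all 14996 genes tested. The fit was tested on simulated counts that had the same spread setting for every gene and no outlying library. That test therefore does not cover a library such as ESC replicate 3. DESeq2 1.42.0 and limma-voom 3.58.1, other scalings and filters, a replicate block and leaving out each library were alternatives. Ratios of paralogs used counts plus 0.5. Full values were given for members called with at least a 2-fold difference and a mean of 1 CPM in the higher state, and for others beside their paralogs. Of related genes, up to 2 with the largest rise and 2 with the largest fall per list were named. Mpdz, Cdc42, Erbin, Lrrc1, Dlg2, Dlg3, Dlg4 and Dlg5 were added after their values were seen. Members, lists and motifs were chosen with earlier results of these data known.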

Additional observations from a re-analysis of the deposited data

How the results depend on the processing

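The counts of members called, 22 higher and 8 lower, stayed within 1.5 times under the 13 alternatives, at 18 to 23 higher and 8 lower, as did the 13 and 3 members at 2-fold and the counts over all genes and over the related list. Leaving out 1 library gave 18 to 22 higher. Without a filter 20 members were called higher. The median of all genes moved by 0.07 or less on the log2 scale under the other scalings. Of 30 called members 26 kept direction and call in every alternative. The exceptions were F11r, Mpp5, Pard6a and Myo5b, for which the cause was not tested. Pard6a was not called by DESeq2 (adjusted p = 0.0518) or without a filter (0.0849), and Mpp5 not without a filter (0.116). Estimates near 0 changed sign for Scrib with upper quartile scaling (0.0016), library totals (0.020) and without ESC replicate 3 (0.0073), and for Cgnl1 without a filter (-0.012), without EpiLC replicate 2 (-0.066) and without ESC replicate 3 (-0.15). Over the fits without 1 library the log2 fold change ran from -0.094 to 0.0073 for Scrib and from -0.15 to 0.24 for Cgnl1. No difference in paralog ratio changed sign.

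Same-numbered libraries of the states did not deviate together (r of their deviations over genes -0.102, 0.001 and -0.17). Libraries of unlike number gave r from -0.164 to 0.172. The deviations were from means of 3 libraries and ESC replicate 3 stood apart, so this check cannot decide whether libraries were paired. With the replicate block 22 members were called higher and 8 lower, and 4584 genes higher and 4650 lower in all. Depth limits Jam2 in EpiLC and Mal2 and Amot in ESC, each at few counts.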
